A study of Marmota monax with 203 samples.

Results

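Complement is a set of plasma and membrane proteins, and the liver makes most of the plasma components. The genes described here are 35 complement genes chosen by symbol: 6 that start the classical pathway, 6 of the lectin pathway, 4 of C3 and the alternative pathway, 7 of the terminal pathway, 6 soluble regulators, 3 membrane regulators and 3 receptors. Reads were listed for 34 of the 35, out of 17587 genes with reads in any sequencing run, and CR2 (complement receptor 2) was not analysed here. The livers were those of adult woodchucks (Marmota monax) with chronic woodchuck hepatitis virus (WHV) infection, established by infection of newborns, and every animal of both groups carried the virus. The 12 placebo animals received no interferon. The 11 wIFN-α animals received woodchuck interferon alpha several times a week, at 20 μg in the period of weeks 0 and 3 and at 100 μg in that of weeks 7, 11 and 15. On treatment, biopsies were taken 6 hours after a dose. Those of week 0 followed the first dose of 20 μg and those of week 7 the first dose of 100 μg. Both groups were biopsied before treatment at week -3 and off treatment at weeks 19 and 23. At weeks -3, 0, 3, 7, 11, 15, 19 and 23 there were 12, 12, 12, 12, 10, 9, 5 and 9 placebo biopsies and 11, 11, 9, 9, 8, 8, 6 and 6 wIFN-α biopsies, 149 in all. Animals are named by their sex and number (F1020 is a female). Some animals died or were not biopsied at later weeks, so later groups are subsets of the earlier ones. The dose was the same within weeks 0 and 3 and within weeks 7, 11 and 15, so the step in dose after week 3 cannot be told apart from time on treatment, while weeks 7 and 15 differ in time at the same dose.

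Complement is started in 3 ways. In the classical pathway C1q, made of 3 chains, binds antibody or surfaces and activates the proteases C1r and C1s. In the lectin pathway mannose-binding lectin, the ficolins and the collectins bind sugars and activate the MASP proteases. Both lead to a C3 convertase made of C4b and of C2, whereas the alternative pathway forms its convertase from C3b and factor B. Cleaved C3 marks surfaces and releases C3a, cleaved C5 releases C5a, and C5b with C6, C7, C8 and C9 forms the membrane attack complex. Hepatocytes make most of these proteins, while the C1q chains come mainly from macrophages and the receptors of C3a and C5a sit mainly on myeloid cells. Interferons are known to raise the RNA of several complement genes, among them CFB, C2 and SERPING1.

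The biopsies had 12072840 to 84805845 reads on genes (median 28754894). In 22 of the 149 biopsies over 1% of reads lay on a list of skeletal muscle genes, up to 15.59%. In the week -3 biopsies of placebo animal F1016 and wIFN-α animal F1018, ALB (albumin, the main hepatocyte product) was at 112.3 and 31.76 CPM (read counts scaled to a common library size after TMM normalization), against group medians of 85300 and 76650, so these biopsies held little liver RNA. The interferon-stimulated gene MX1 checked the treatment labels: it was at 5049 to 8564 CPM in the 8 wIFN-α animals of week 15 and at 512.6 to 764.1 CPM in the 9 placebo animals. At week 3, MX1 was at 689.3 CPM in wIFN-α animal F1013, within the placebo range of 169.5 to 757.7 CPM. The 2 sequencing runs of placebo animal M1008 at week 15 differed from each other by a chi-square per degree of freedom of 136.9, where the next pair differed by 31.45. Whether both runs came from the same biopsy was not tested, so the summed week 15 values of M1008 may mix samples. Leaving out M1008 kept the count of complement genes called at week 15 at 9. In bulk tissue, fewer cells of a type and less RNA per cell cannot be told apart.

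In placebo livers the complement genes spanned a wide range in CPM per kilobase of assembled transcript (the plot of levels in placebo biopsies). VTN (vitronectin, a soluble inhibitor of the membrane attack complex) had the highest median, 2028 CPM per kb. C3, the central component, followed with 882.6 CPM per kb, then SERPING1 (C1 inhibitor) with 751.2, C4BPA (the alpha chain of C4b-binding protein) with 701.9 and CFB (factor B) with 530.8. The interquartile ranges over the 81 biopsies, 704.2 to 1055 for C3 and 637.6 to 965.4 for SERPING1, overlapped, so these neighbours were not apart beyond their spread. The terminal genes lay lower, from 229.5 CPM per kb for C8A to 44.3 for C7. The chains of C1q had similar medians, 55.85 for C1QA, 43.11 for C1QB and 42.82 for C1QC, and the ratio of C1QC to C1QB per kb was 0.9967 at the median of the placebo biopsies, and the central 90% of them lay between 0.8089 and 1.267. The receptors C5AR1 and C3AR1 had 0.8165 and 0.7927 CPM per kb. CD59, the membrane inhibitor of the attack complex, was lowest at 0.01396 CPM per kb and failed the filter on low counts in every comparison, so 33 members were tested. The assembled lengths are those that relate the deposited RPKM to the counts, and C1S and CLU have the same length of 6465 nucleotides, so their levels per kb are uncertain. The order of the genes also depends on these lengths, which were not checked. VTN had a length of 1000 nucleotides and C3 of 7992. In CPM without the length, C3 had a median of 7054 and VTN of 2028.

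**Figure D1:**
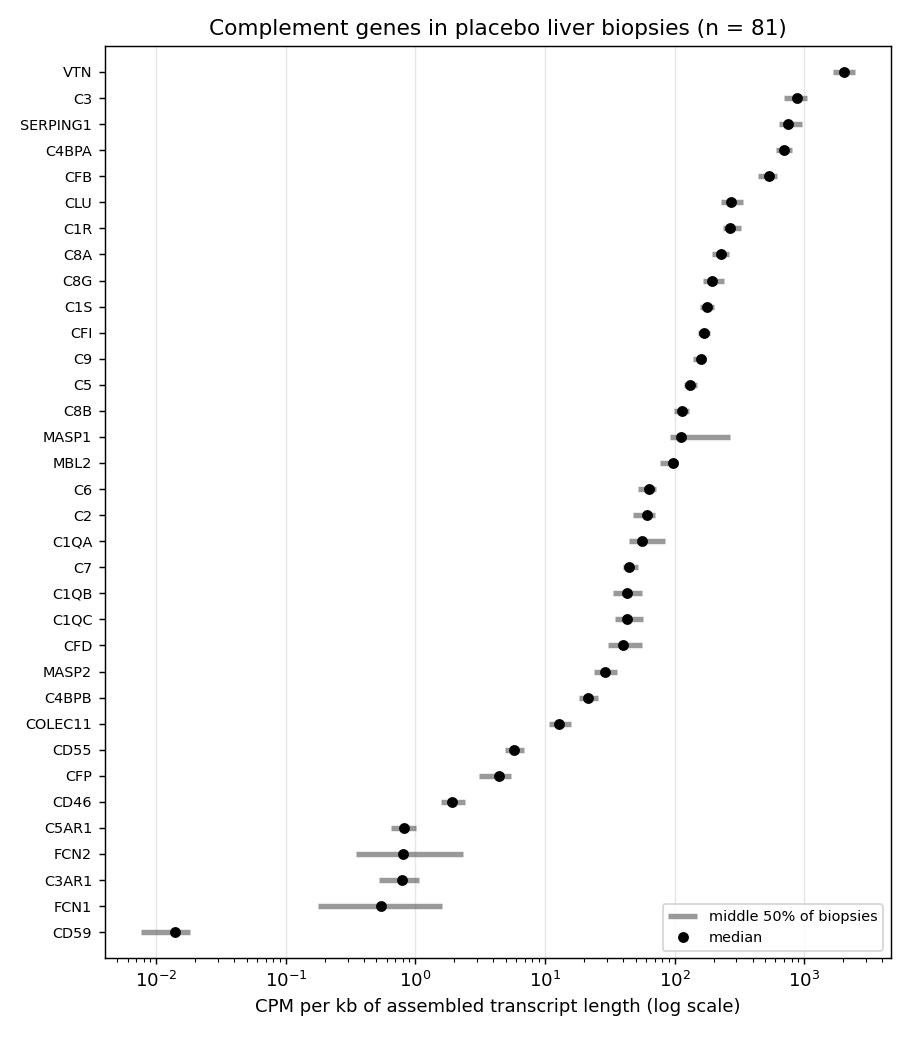
Level of each of the 34 complement genes in the 81 placebo biopsies, in CPM per kb of assembled transcript length on a log scale; points are medians and bars the interquartile ranges. VTN is highest at 2028 and CD59 lowest at 0.01396, and the bars of MASP1, FCN1 and FCN2 are wide.

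To ask which of these genes responded to wIFN-α, the groups were compared at each week with edgeR's quasi-likelihood test, and a gene was called at a Benjamini-Hochberg adjusted p under 0.05 over all genes tested and a fold change above 1.5. More complement genes were called as treatment went on, and all were higher under wIFN-α: 2 of 33 at week 0 (MBL2 and CFB), 2 at week 3 (both again), 3 at week 7 (with C2), 4 at week 11 (with C3AR1) and 9 at week 15 (with C1QA, C1QB, C1QC, C6 and SERPING1). No member was called lower at any week. Over all genes tested, the share called higher was 10.3% at week 0, 7.24% at week 3, 11.4% at week 7, 12.6% at week 11 and 13.4% at week 15, and the share called lower was 8.15%, 3.54%, 10.1%, 7.98% and 8.83%. Set against these shares, 2 to 4 of 33 members up to week 11 is near the background, and 9 of 33 at week 15 is above it. The 9 include the 3 chains of C1q, which moved together and are not independent. Leaving out single animals gave 7 to 10 members at week 15. The median log2 fold change of the 33 members was 0.08, -0.005, 0.033, 0.077 and 0.301 at these weeks, against -0.013 over all genes at week 15. The heat map of fold changes shows that the members called did not come from one step. Of the tested members at week 15, 4 of 6 in the start of the classical pathway, 1 of 6 in the lectin pathway, 1 of 4 in C3 and the alternative pathway, 1 of 7 in the terminal pathway, 1 of 6 soluble regulators, 0 of 2 membrane regulators and 1 of 2 receptors were called.

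Before treatment, at week -3, edgeR, DESeq2 and limma-voom each called 0 members, with 0 of 33 at an unadjusted p under 0.05, and edgeR called 0% of all genes. At weeks 19 and 23 edgeR again called 0 members and 0% of all genes, and DESeq2 and limma-voom called 0 members. In edgeR, 4 members at each week had an unadjusted p under 0.05. So did 1859 of 14715 genes at week 19 and 2416 of 14956 at week 23. FCN1 and FCN2 failed the filter on low counts at week 19, where 31 members were tested.

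**Figure D2:**
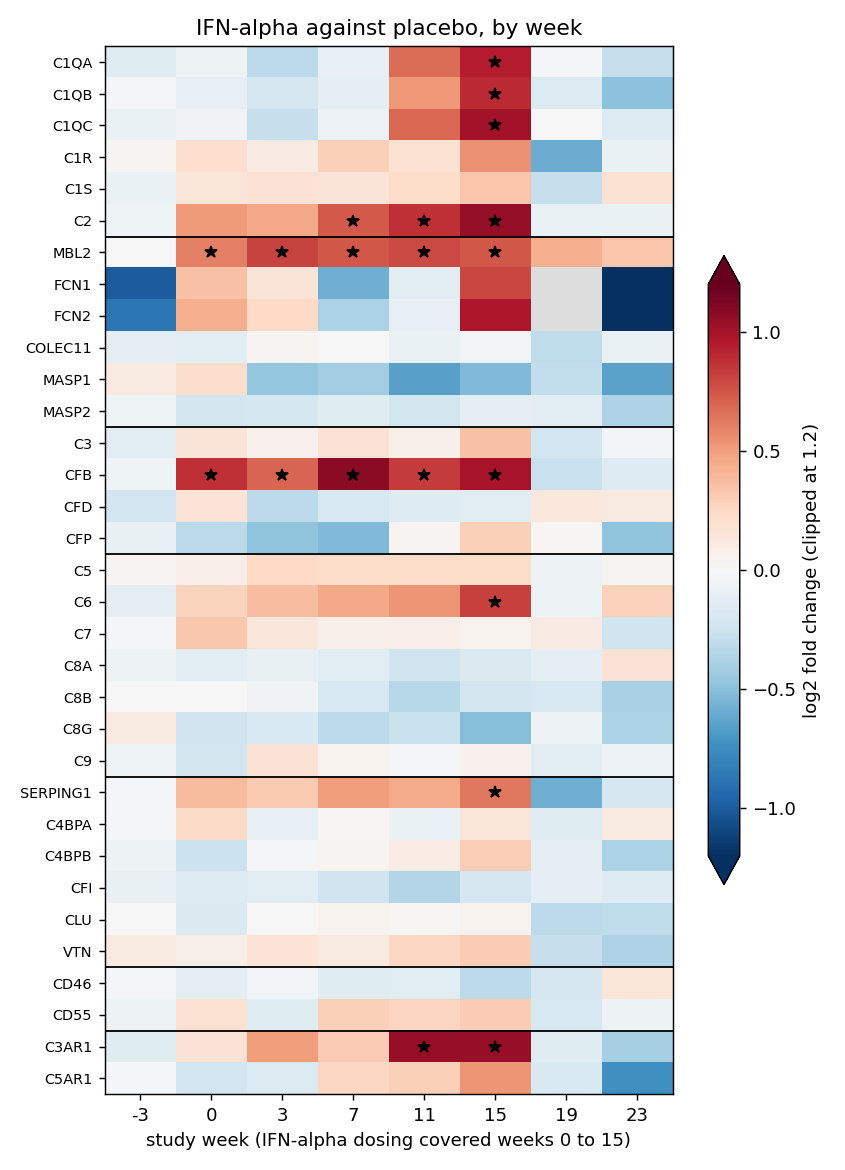
Log2 fold change of wIFN-α against placebo for the 33 tested members (rows, grouped by pathway step between lines) at each study week (columns); colours are clipped at 1.2, grey cells were not tested, and stars mark genes called. MBL2 and CFB carry stars at weeks 0 to 15, C2 at weeks 7 to 15, C3AR1 at weeks 11 and 15, and C1QA, C1QB, C1QC, C6 and SERPING1 at week 15.

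MBL2, CFB and C2 were called at 3 or more of the 5 weeks on treatment and are given in full. MBL2 encodes mannose-binding lectin, the sugar-binding starter of the lectin pathway. At week -3 its level ranged from 12.01 to 388.7 CPM in placebo animals (median 290.3) and from 10.28 to 420.1 CPM in wIFN-α animals (median 314.2). At week 0 the medians were 371.3 and 525.9 CPM, and at week 7 the 12 placebo animals lay between 329.2 and 461.9 CPM and the 9 wIFN-α animals between 543.6 and 822.3 CPM. The groups did not overlap at weeks 7 and 11, and at week 15 the wIFN-α animals ranged from 369 to 701.8 CPM (median 591.1) against 251.3 to 422.8 CPM (median 342.2), with 7 of 8 above the highest placebo animal. The log2 fold changes of MBL2 were 0.61 ± 0.14 (SE) at week 0, 0.81 ± 0.19 at week 3, 0.74 ± 0.08 at week 7, 0.80 ± 0.11 at week 11 and 0.75 ± 0.12 at week 15, with edgeR adjusted p-values of 0.0014, 0.00414, 1.18e-07, 1.13e-05 and 9.15e-05. The fold at week 0, 1.523, was just past the threshold, and the call was lost without the muscle-rich biopsies or without any 1 of F1013, F1018, F1022, M1002 and M1003, with log2 fold changes of 0.57 to 0.65 over all settings.

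CFB encodes factor B, the protease of the alternative pathway's C3 convertase. Before treatment its medians were 3056 CPM under placebo and 2835 CPM under wIFN-α, with a log2 fold change of -0.05 ± 0.58. The biopsies of F1016 and F1018 with little liver RNA had 10.74 and 5.138 CPM. With so wide an error, this test could not show a difference of the size called on treatment. At week 0, 10 of the 11 wIFN-α animals, at 3032 to 5540 CPM, exceeded the highest of the placebo animals, which lay between 1801 and 3206 CPM. At week 7 the groups were apart, at 3122 to 4449 CPM under wIFN-α and 1299 to 2141 CPM under placebo. At week 15 they were apart again, at 1877 to 4368 CPM (median 2915) and 1050 to 1875 CPM (median 1479), although the lowest wIFN-α animal, F1020, and the highest placebo animal were almost level. CFB was 1.836-fold, 1.621-fold, 2.121-fold, 1.788-fold and 1.989-fold higher at weeks 0, 3, 7, 11 and 15, with edgeR adjusted p-values of 1.82e-06, 0.0036, 1.32e-09, 8.84e-05 and 7.55e-05. In placebo animals the median itself fell over the study, from 3056 CPM at week -3 to 1435 CPM at week 23, so the wIFN-α level at week 15 was close to the level of both groups before treatment.

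C2 encodes the protease that C1s and MASP2 cleave for the classical and lectin C3 convertase, and it lies next to CFB in mammalian genomes. At weeks 0 and 3 its log2 fold changes were 0.51 ± 0.11 and 0.45 ± 0.15, with edgeR adjusted p-values of 0.00052 and 0.0354, but the folds of 1.426 and 1.367 were under the threshold. At weeks 7, 11 and 15 C2 was 1.671-fold, 1.831-fold and 2.071-fold higher than under placebo (edgeR adjusted p = 1.36e-06, 2.01e-06 and 9.46e-07). The 8 wIFN-α animals of week 15 lay between 454.5 and 652 CPM and the 9 placebo animals between 208.6 and 367.1 CPM. At weeks 11 and 15 the groups of C2 did not overlap, and at week 7 8 of 9 wIFN-α animals exceeded every placebo animal. Under wIFN-α the medians of C2 were 577.8, 514.9, 542.2, 531.2 and 567 CPM at weeks 0, 3, 7, 11 and 15. Under placebo they were 374.5, 346.2, 339.8, 289.9 and 296.6 CPM, so the growing fold went with a falling placebo median.

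**Figure D3:**
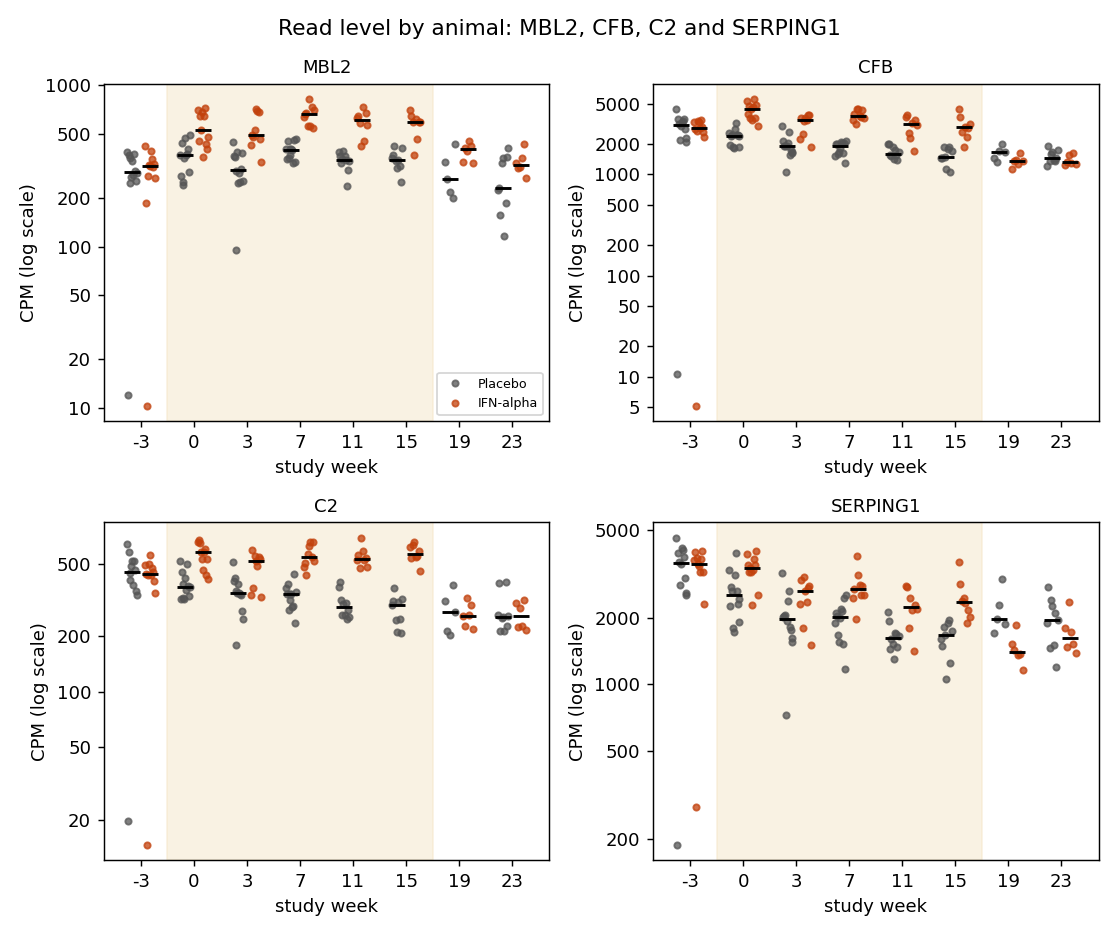
CPM of MBL2, CFB, C2 and SERPING1 (log scale) in each animal by study week, placebo in grey and wIFN-α in orange, with black bars at the medians and weeks on treatment shaded. The wIFN-α animals of C2 lie at 454.5 to 652 CPM at week 15, above the placebo animals at 208.6 to 367.1, and the 2 lowest points of week -3 are the muscle-rich biopsies of F1016 and F1018.

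SERPING1 and C6 were named because they were called at week 15. SERPING1 encodes C1 inhibitor, which blocks C1r, C1s and the MASP proteases. On the log2 scale its effect was 0.38, 0.31, 0.51, 0.44 and 0.63 ± 0.14 at weeks 0, 3, 7, 11 and 15. At week 15 the wIFN-α animals had 1900 to 3561 CPM (median 2346) and the placebo animals 1057 to 1960 CPM (median 1676), and 7 of 8 exceeded the highest placebo animal (edgeR adjusted p = 0.00152). The fold of 1.551 was near the threshold, and the call was lost without F1013, F1014 or F1021, the last of which gave the muscle-rich biopsy of this week. At week 19 the order was the opposite: SERPING1 was at 1698, 1969, 2286, 2988 and 1874 CPM in placebo animals F1016, F1019, M1005, M1008 and M1011, and 5 of 6 wIFN-α animals were below all of them, at 1160 to 1519 CPM, with F1018 at 1857 CPM. This log2 fold change of -0.58 ± 0.17 did not pass the adjustment (adjusted p = 0.297). It was not particular to SERPING1: at week 19, 26 of the 31 tested members had a log2 fold change below 0 and 5 above. For VTN all 6 wIFN-α animals, at 1666 to 1987 CPM, were below all placebo animals, at 2055 to 2689 CPM. Its log2 fold change was -0.28 ± 0.11 (edgeR adjusted p = 0.366).

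C6 encodes a component of the membrane attack complex. Its log2 fold changes were 0.27, 0.37, 0.46, 0.53 and 0.82 ± 0.13 at weeks 0, 3, 7, 11 and 15, and those of weeks 7 and 11 had edgeR adjusted p-values of 0.00147 and 0.00352 with folds under the threshold. At week 15 C6 was at 478.3 to 641.5 CPM under wIFN-α and at 155.1 to 375.4 CPM under placebo, without overlap (adjusted p = 7.75e-05). The other terminal genes did not follow C6. C8G, the gamma chain of C8, had a log2 fold change of -0.51 ± 0.12 (adjusted p = 0.0025, fold 1.423, under the threshold), with 102.3 to 166.2 CPM against 156.4 to 265.1 CPM. At week 15 the log2 fold changes of the rest were 0.22 ± 0.13 for C5, 0.04 ± 0.09 for C7, -0.17 ± 0.17 for C8A, -0.22 ± 0.16 for C8B and 0.06 ± 0.14 for C9, none with an adjusted p under 0.05.

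The chains of C1q, the antibody-binding part of C1, were called only at week 15 among the weeks tested. At weeks 0, 3 and 7 their log2 fold changes lay between -0.32 and -0.04, and at week 11 those of C1QA, C1QB and C1QC were 0.67, 0.52 and 0.69 with edgeR adjusted p-values of 0.0856, 0.191 and 0.0862. C1QB at week 15 was at 54.84, 80.27, 93.76, 102.8, 112.3, 117, 126.2 and 240.2 CPM in F1014, M1012, F1022, F1018, F1013, M1002, M1003 and F1020, against 18.51 to 96.67 CPM (median 64.38) in the placebo animals. The groups overlapped, with 5 of 8 wIFN-α animals above the highest placebo animal and F1020 far above the rest. C1QA was at 70.37 to 255 CPM (median 116.1) against 27.43 to 120.8 CPM (median 62.67), and C1QC at 46.33 to 216.5 CPM (median 96.74) against 20.66 to 84.68 CPM (median 54.77).

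The log2 fold changes at week 15 were 0.94 ± 0.29 for C1QA, 0.90 ± 0.31 for C1QB and 1.01 ± 0.29 for C1QC, with edgeR adjusted p-values of 0.0161, 0.025 and 0.0093. Without F1020 the calls of C1QA and C1QC stayed and that of C1QB was lost (adjusted p = 0.0711, the highest over its alternatives, against 0.0109 at the lowest). At week 11, C1QA would be called without F1013 (log2 fold change 0.78, adjusted p = 0.0493) or without the muscle-rich biopsies (0.84, adjusted p = 0.0419), and C1QC without F1014 (0.80, adjusted p = 0.0452). The chains kept their proportion: C1QC to C1QB per kb was 1.075 at the median of the 8 wIFN-α biopsies of week 15.

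**Figure D4:**
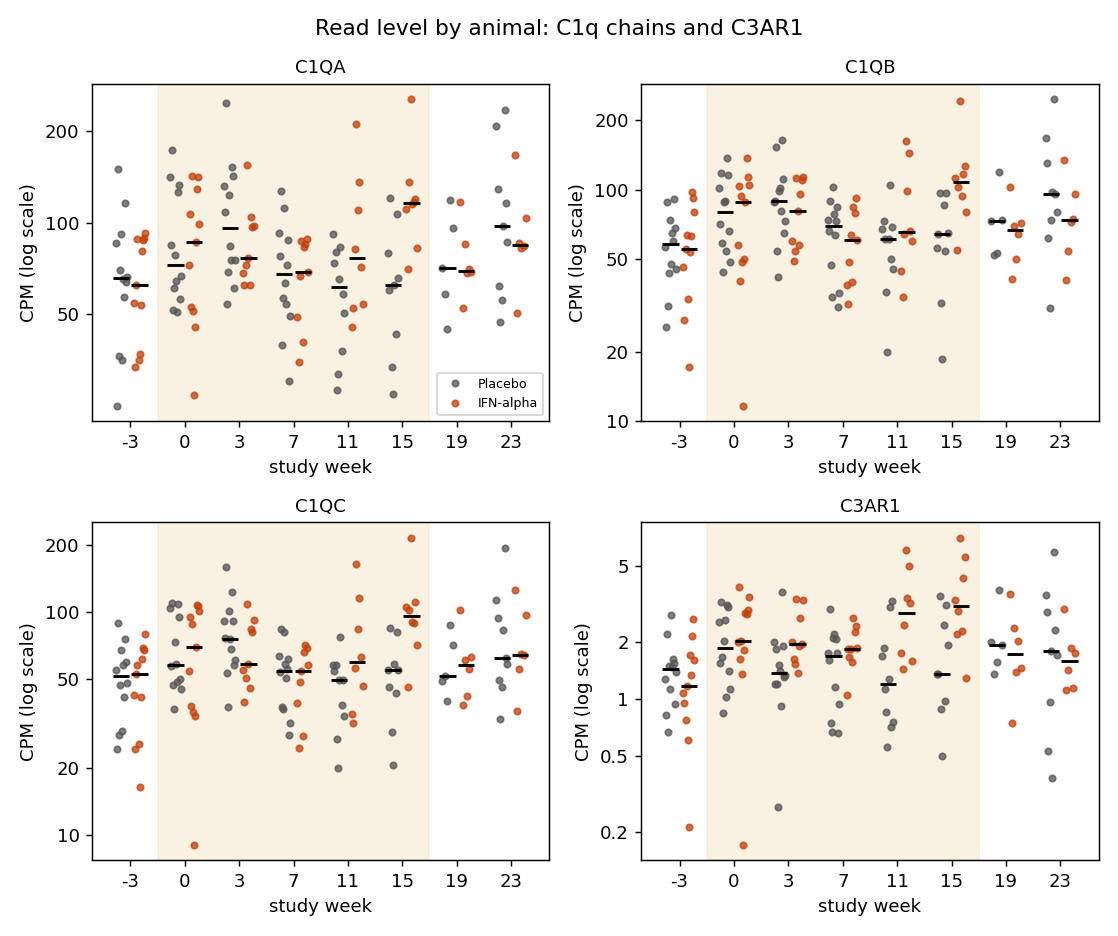
CPM of C1QA, C1QB, C1QC and C3AR1 (log scale) in each animal by study week, drawn as in the plot of MBL2. The medians of the groups differ most at week 15 for the C1q chains (107.6 against 64.38 CPM for C1QB) and the points overlap at every week.

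Since macrophages are the main source of C1q, a list of 18 macrophage markers, of which 17 had entries, was set beside these values. Their summed level at week 15 was 559.1 to 957.2 CPM (median 816.7) in placebo animals and 734.7 to 1273 CPM (median 830.9) in wIFN-α animals, with F1020 highest at 1273 and M1003 next at 1043 CPM. Of the 17 tested, 3 were called higher and 1 lower, near the shares of all genes called higher (13.4%) and lower (8.83%) at week 15. FCGR1A (a high-affinity IgG receptor) had a log2 fold change of 1.76, from a median of only 0.5949 CPM in placebo biopsies. SLC11A1 (a metal transporter of phagosomes) had 1.05, TIMD4 (a phagocytic receptor of resident macrophages) 0.69 and CD163 (a haemoglobin scavenger receptor) -1.94. The median log2 fold change of the list was 0.37 at week 15, 0.36 at week 11 and between -0.15 and 0.02 at weeks 0, 3 and 7. No marker of the list was at 0 at the median of the placebo biopsies. Lymphocyte markers moved at the same weeks. Of 11 tested T cell markers, 7 were called higher at week 11 and 9 at week 15, against 12.6% and 13.4% of all genes. At week 15 the summed level of the T cell list was 127.5 to 280.7 CPM against 50.67 to 100.9 CPM. F1020 was highest of the 8 for the T cell and B cell lists also, and lowest for the hepatocyte list, at 75500 CPM. Their part in the C1q values was not tested. Of the 18 hepatocyte markers, 1 was called at week 15, higher, where 13.4% of all genes were called higher. Their median log2 fold change was 0.07.

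C3AR1 encodes the receptor of C3a. It was a gene of low level, with 30 to 257 reads in the wIFN-α biopsies of week 15. At week 11 it was at 1.436 to 6.105 CPM (median 2.83) under wIFN-α and 0.5621 to 3.292 CPM (median 1.2) under placebo. At week 15 the wIFN-α animals had 1.289 to 7.086 CPM (median 3.11) and the placebo animals 0.5035 to 3.503 CPM (median 1.364), so the groups overlapped and 3 of 8 wIFN-α animals, F1020, M1003 and M1002, exceeded every placebo animal. The log2 fold changes were 1.05 ± 0.37 and 1.05 ± 0.38 (edgeR adjusted p = 0.0332 and 0.0355). Both calls were near the threshold and were lost when any 1 of several animals was left out. That of week 11 was lost without F1020, F1022 or M1002. That of week 15 was lost without F1015, F1016, F1019, F1020, M1002, M1003, M1005 or the muscle-rich biopsy of F1021. The adjusted p reached 0.0866 and 0.0883 at most, with 0.0139 and 0.0169 at the lowest. C5AR1, the receptor of C5a, differed between the groups by 0.53 ± 0.18 on the log2 scale at week 15 (adjusted p = 0.0257, fold 1.448, under the threshold), and would be called there without placebo animal F1017 or with M1004 included.

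The remaining members were not called. Among the genes that start the classical pathway, the proteases C1R and C1S had log2 fold changes at week 15 of 0.55 ± 0.13 (edgeR adjusted p = 0.00237, fold 1.461) and 0.34 ± 0.13 (adjusted p = 0.0443, fold 1.263), both under the fold threshold. Without wIFN-α animal M1012, C1R would be called (log2 fold change 0.62). C3, cleaved by the C3 convertases, had 0.35 ± 0.13 (adjusted p = 0.0429, fold 1.274), with medians of 7649 CPM under wIFN-α and 5813 CPM under placebo. CFD (factor D, which cleaves factor B) had -0.13 ± 0.32 and CFP (properdin, which stabilises the alternative convertase) 0.29 ± 0.30. At week 7 CFP had -0.53, and it would be called lower there without M1002, M1003 or M1007.

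Among the soluble regulators at week 15, CLU (clusterin) had 0.04 ± 0.14, VTN 0.30 ± 0.14, C4BPA 0.14 ± 0.13 and C4BPB 0.29 ± 0.18, all on the log2 scale and none with an edgeR adjusted p under 0.05. CFI (factor I, which cleaves C3b and C4b) was at -0.24 and -0.36 at weeks 7 and 11 (adjusted p = 0.0197 and 0.0486), with folds of 1.183 and 1.28 under the threshold, and at -0.20 at week 15 (adjusted p = 0.266). The membrane regulators CD46 and CD55, which protect host cells from C3b, had -0.31 ± 0.13 and 0.31 ± 0.14 at week 15 (adjusted p = 0.0624 and 0.0952).

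In the lectin pathway MBL2 was the only member called. COLEC11 (a collectin) and MASP2 (the protease that cleaves C4 and C2) had log2 fold changes of -0.03 ± 0.15 and -0.12 ± 0.11 at week 15. The ficolins FCN1 and FCN2 were at low levels that varied widely between animals: at week 15 FCN1 was at 0 to 3.2 CPM under placebo and 0.1863 to 4.264 CPM under wIFN-α, and FCN2 at 0 to 3.534 and 0.2096 to 6.492 CPM. These paralogs moved alike, their reads may be shared, and their levels are uncertain. Their log2 fold changes at week 15, 0.80 ± 0.75 and 0.97 ± 0.71, did not pass the test.

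MASP1, the other lectin pathway protease, differed between animals far more than between groups. Over its biopsies, placebo animal F1015 had 3322 to 5459 CPM (7 biopsies), wIFN-α animal F1020 3741 to 6103 CPM (6 biopsies) and placebo animal M1005 3272 to 4861 CPM (8 biopsies), whereas placebo animal M1008 had 597.7 to 1136 CPM (8 biopsies) and wIFN-α animal F1022 873.2 to 1383 CPM (8 biopsies). The ranges of these high and low animals did not overlap. After the mean of each group and week was taken out, 91.4% of the variance of log2(CPM + 1) of MASP1 in the 127 biopsies without much muscle lay between the 23 animals. This share had a median of 48.3% over the 34 members and of 41.5% over 13403 genes with a median of at least 1 CPM, and 21 of those genes, 0.157%, exceeded MASP1. CFB and C3 had among the lowest shares, 30% and 30.3%. The log2 fold change of MASP1 at week 15 was -0.53 ± 0.39 (edgeR adjusted p = 0.291), and it depended on F1020. Without that animal MASP1 would be called lower at weeks 7, 11 and 15, at -0.78, -0.995 and -0.93 (adjusted p = 0.0451, 0.0211 and 0.0399). Those fits removed a high animal from the wIFN-α group only and kept the high placebo animals F1015 and M1005. Another high wIFN-α animal, M1006 (3111 to 4515 CPM), had biopsies from weeks -3 and 0 only. With all animals, the effect before treatment stood at 0.11 ± 0.35, followed by 0.21 ± 0.37 (week 0) and -0.46 ± 0.35 (week 3). Whether the lower MASP1 came from treatment or from which animals remained was not tested.

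The high dose effect was set against the low dose effect by the difference between the effect at week 15 and the mean effect at weeks 0 and 3, in 1 edgeR fit of all 149 biopsies. This test called 0 of 33 members and 2.26% of all genes. At an unadjusted p under 0.05 there were 5 members, and 2315 of 16232 genes. The differences of C1QA, C1QB and C1QC, 1.11 ± 0.36, 1.02 ± 0.36 and 1.15 ± 0.36 on the log2 scale, had adjusted p-values of 0.078, 0.12 and 0.0664. With the animal as a replicate block, which is the paired form of the test, 4 members were called: C1QA at 1.10 ± 0.24 (adjusted p = 0.000915), C1QB at 1.05 ± 0.24 (adjusted p = 0.00232), C1QC at 1.14 ± 0.26 (adjusted p = 0.00204) and CFP at 0.70 ± 0.23 (adjusted p = 0.0411). The block also called more of all genes, 7.16%. DESeq2 called 1 member, C1QC, and 3.21% of all genes. The effect of MBL2 did not differ between high and low dose beyond its error (0.02 ± 0.29), nor did that of CFB (0.18 ± 0.35), while C2 had 0.54 ± 0.26 (adjusted p = 0.317). The fit of all biopsies includes the muscle-rich ones, and its errors are wide. For off treatment against week 15, the SE of CFB was 0.391 with these biopsies and 0.176 without them. The test therefore does not show that the effects at high and low dose were equal.

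The change from the start of the low dose to its repetition, week 3 against week 0, called 0 of 33 members with edgeR (0 at an unadjusted p under 0.05, 0 with DESeq2) and 2.4% of all genes. At week 3, 6 of the 12 placebo biopsies and 2 of the 9 wIFN-α biopsies were rich in muscle. Without the muscle-rich biopsies of all weeks, this test called 3 genes higher and 8 lower out of 16171. For the difference in the wIFN-α effect between females and males at week 15 (the interaction of agent and sex), edgeR and DESeq2 called 0 members (0 at an unadjusted p under 0.05), and edgeR called 0% of all genes.

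After treatment, with the counts of weeks 19 and 23 summed per animal, edgeR called 0 of 33 members (5 at an unadjusted p under 0.05) and 0.287% of all genes. Over all genes, 4206 of 15690 had an unadjusted p under 0.05 in this test. Of the members, 26 had a log2 fold change below 0 and 7 above, with a median of -0.202 against -0.050 over all genes. DESeq2 called 2, FCN1 and FCN2, both lower, at -2.20 and -2.11 on the log2 scale (adjusted p = 0.0424 and 0.0284), from levels of at most 4.199 CPM, where it called 4.76% of all genes. Off treatment the log2 fold change was -0.17 ± 0.11 for CFB, -0.04 ± 0.15 for C2 and -0.30 ± 0.41 for C3AR1. MBL2 kept a positive value, 0.39 ± 0.20 (adjusted p = 0.223), with medians of 401.8 and 261.3 CPM at week 19 and 320.8 and 232.6 CPM at week 23.

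The difference between the effects off treatment and at week 15 was called for 9 of 33 members, all lower off treatment, where 16.3% of all genes were called lower and 11.5% higher (the plot of changes after treatment). The 9 were 5 of the 6 genes that start the classical pathway (C1QA, C1QB, C1QC, C1R and C2), CFB, SERPING1 and both receptors. C3AR1, C1QB and CFB had the largest falls among those called, of -1.28 ± 0.48, -1.19 ± 0.40 and -1.17 ± 0.39 on the log2 scale, with edgeR adjusted p-values of 0.034, 0.0172 and 0.016. C2 fell by 1.09 (adjusted p = 0.00199), C1QA by 1.06, C1QC by 1.06, SERPING1 by 0.99, C5AR1 by 0.96 and C1R by 0.85. The change of MBL2, -0.34 ± 0.32, was not called (adjusted p = 0.471). With week 23 alone in place of both weeks, the calls of CFB (adjusted p = 0.0562), SERPING1 (adjusted p = 0.0605), C1QC (adjusted p = 0.0565) and C1R (adjusted p = 0.185) were lost, and with the deepest run of each biopsy those of C1QA (adjusted p = 0.0591) and C1QC (adjusted p = 0.0598). CD46 was called higher with week 23 alone (0.50 ± 0.19, adjusted p = 0.0436). Without the muscle-rich biopsies 13 members were called, with CD46 added as higher (0.42 ± 0.17, adjusted p = 0.0451) and C6 (-0.57 ± 0.21, adjusted p = 0.0292), VTN (-0.55 ± 0.20, adjusted p = 0.0259) and FCN1 (-3.08 ± 1.25, adjusted p = 0.0464) as lower, and 33.5% of all genes were called in either direction. The macrophage list had 5 of 17 genes called lower and none higher in this test, the T cell list 8 of 12 and the neutrophil list 9 of 12, and their part in the falls of C1q, C3AR1 and C5AR1 was not tested.

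**Figure D5:**
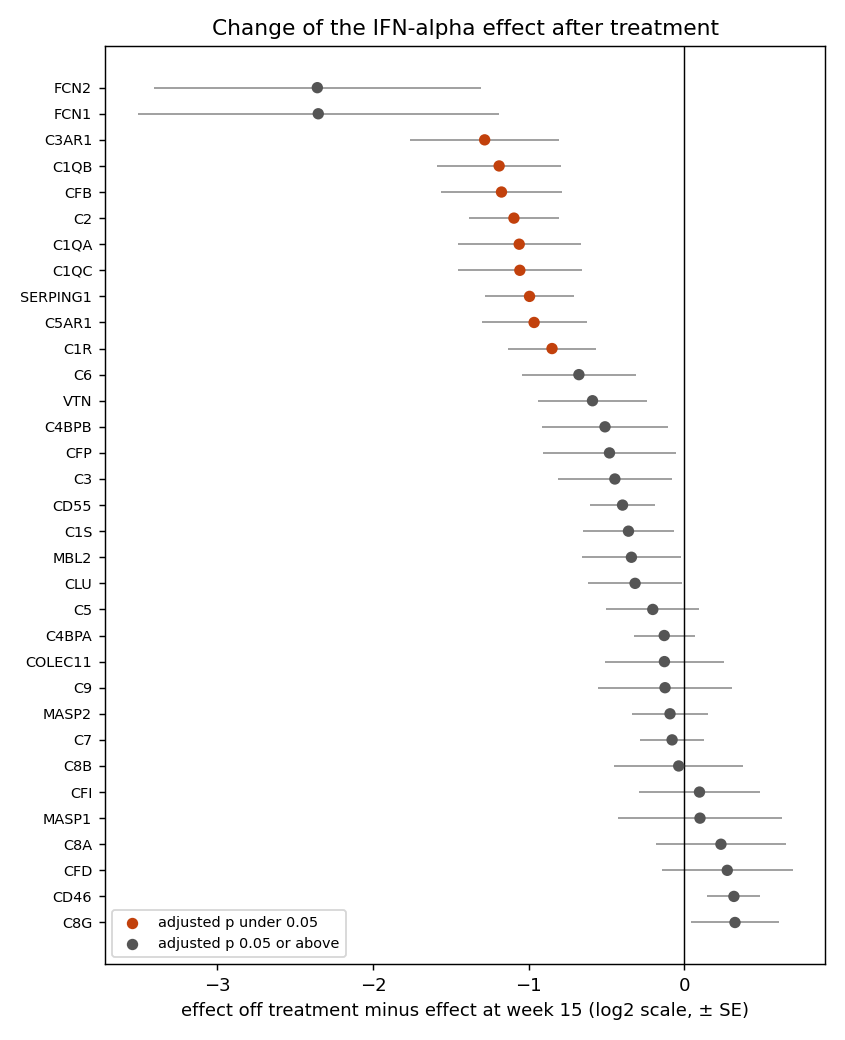
Effect of wIFN-α off treatment (mean of weeks 19 and 23) minus its effect at week 15, on the log2 scale with standard errors, for the 33 tested members; orange points have an adjusted p under 0.05. The 9 orange points lie between -1.28 (C3AR1) and -0.85 (C1R), and FCN1 and FCN2 lie lower with wide errors.

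A second list held 25 further complement genes, of which 21 had entries. At week 15, 3 of the 20 tested were called higher and none lower, a share near the 13.4% of all genes called higher: C4A with a log2 fold change of 0.68, CRP (C-reactive protein, which activates C1) with 0.60 and ITGB2 (the beta chain of complement receptors 3 and 4) with 0.80. ITGAM, the alpha chain of complement receptor 3, was called lower at weeks 0, 3 and 7, at -1.05, -0.77 and -0.94. PTX3, a pentraxin that binds C1q, was called higher at week 0, at 2.18, and its effect at week 3 was lower than at week 0 by -2.55. C4A and C4B are near-identical copies, the entry named C4B held most reads (medians of 2619 and 2.626 CPM in placebo), and the value of C4A is uncertain. At week 7, 4 of 20 were called higher and 2 lower, where 11.4% of all genes were called higher and 10.1% lower. In the test of off treatment against week 15, 1 of 21 was higher and 7 lower, where 11.5% of all genes were higher and 16.3% lower. The median log2 fold change of the list was 0.27 at week 15, against 0.30 for the members.

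In placebo animals several members drifted over the study, described here without a test. Between week -3 and week 15 in the same 9 placebo animals, SERPING1 was lower in 8, with medians of 3767 and 1676 CPM. CFB was lower in 8 (3317 and 1479 CPM) and C2 in 8 (445.1 and 296.6 CPM). CLU was lower in 8 (2653 and 1375 CPM) and C3 in 7 (9620 and 5813 CPM). MBL2 was lower in 3 and higher in 6, and CD46, C7 and MASP1 were higher in 8 of 9. Hepatocyte genes had lower medians at the later weeks too: the summed level of the hepatocyte list in placebo animals was 170000 CPM at week -3, 116500 CPM at week 0 and 103600 CPM at week 15, and ALB was at 85300, 45980 and 33740 CPM. In wIFN-α animals the list was at 169200 CPM at week -3 and 110200 CPM at week 0. The part of this change in the members' values was not tested. F1016, whose week -3 biopsy held little liver RNA, is among the 9.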

How the data were processed

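Poly(A) RNA of woodchuck liver biopsies was sequenced as paired-end reads of 50 nucleotides, and the authors mapped the pairs with Bowtie2 to their own transcriptome assembly and counted reads per gene with SAMtools (versions not given in the sources used here). The deposited expected counts are given per gene and run and were not normalized; all but 118 of 3368023 are whole numbers. RPKM values deposited beside them served only to recover assembled lengths. Genes are given by symbol, with no coordinates, and reads of antisense genes cannot be told apart.

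Summing runs of a biopsy turned 203 runs into 164 biopsies, whose counts were rounded. Of these, 149 were used and 7 of animal M1004 were left out (its antigen level was falling before treatment). The other 8 were of other weeks or were labelled as from animals that died, with no week given. The labels count the start of treatment as week 1, the study as week 0, and the study's weeks are used. Counts were tested with edgeR 4.0.16 in R 4.3.3 (TMM, filterByExpr, quasi-likelihood test, Benjamini-Hochberg), 1 fit per week, and differences between effects in 1 fit of all biopsies, called at an adjusted p under 0.05. Alternatives used DESeq2 1.42.0, limma 3.58.1, other filters, samples and fold thresholds. P-values of the week tests rest on animals as replicates. The same animal's biopsies at different weeks deviated together (median correlation 0.329 over 80 pairs and 13915 genes, against -0.028 in 761 other pairs), so the pairing by animal is real and was fitted as a replicate block. The tests were checked on simulated data. Tables were made with Python 3.11.15, pandas 2.3.3, numpy 2.4.6 and matplotlib 3.10.9.

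Members given in full were those called at 3 or more of 5 weeks on treatment and the 3 largest in each direction of a difference test. Others were named after their values were seen. The members, the marker lists and the list of other complement genes were chosen with earlier results of these data known.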

Additional observations from a re-analysis of the deposited data

Results flagged for a closer look

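In 2 of the 50 small groups examined, 1 animal stood apart from the others by Dixon's criterion at the 95% level, where chance gives about 1 in 20. Placebo animal M1008 had 3.775 CPM of C3AR1 at week 19, with the next animal at 2.003 CPM. wIFN-α animal F1020 had 240.2 CPM of C1QB at week 15, with the next at 126.2 CPM, and it also had the highest summed level of macrophage markers, 1273 CPM. The part of these cells in the value was not tested.

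The effect of wIFN-α off treatment differed from that at week 15 for 9 complement genes, by edgeR's test of the difference itself. On the log2 scale the differences were -1.282 for C3AR1, -1.189 for C1QB, -1.174 for CFB, -1.094 for C2, -1.06 for C1QA, -1.056 for C1QC, -0.9938 for SERPING1, -0.9644 for C5AR1 and -0.8493 for C1R.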

How the results depend on the processing

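Among the 29 called results of single members, 517 settings were run: 473 kept the call, 44 lost it in the same direction and 0 reversed. DESeq2, limma-voom, RLE normalization, no filter, the deepest run, M1004 included, sex as a covariate and a fit of all weeks kept the counts of members called by week within 1.5 times. Without the muscle-rich biopsies the count at week 0 was 1. With a fold change above 2, the counts at weeks 0, 3, 7, 11 and 15 were 0, 0, 1, 1 and 3. With no minimum fold change, the counts at weeks 0, 7, 11 and 15 were 5, 9, 7 and 14. The shares of all genes at these other thresholds were not counted, so these counts have no background beside them. Single wIFN-α animals were left out at weeks 0, 3, 7 and 11, where no placebo animal was, and single animals of either group at weeks 15 and 19 and off treatment. This gave 1 to 2 members at week 0 (1 without F1013, F1018, F1022, M1002 or M1003), 2 to 2 at week 3, 3 to 4 at week 7, 3 to 5 at week 11, 7 to 10 at week 15, and 0 at week 19 and off treatment. DESeq2 called 2 members off treatment and 1 in week 15 against weeks 0 and 3, where the replicate block called 4. In the paired fit of off treatment against week 15 the count was 11 of 33 in place of 9, a share like the 33.3% of all genes called by this fit. FCN1 and FCN2 were added, and the block changed no other call. At week 23 no biopsy was rich in muscle, so the setting without such biopsies was not run there. The cause of these changes was not tested. At the lowest levels depth limits the values: C3AR1 had as few as 4 reads in a biopsy.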
